A study of Mus musculus with 305 samples.

Results

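The 10 genes described here, Col1a1, Col1a2, Dcn, Lum, Igf2, Igfbp2, Slc22a6, Slc6a13, Apod and Ptgds, are transcripts that fibroblasts of the leptomeninges make. They are 10 of the 52636 genes in the count table of a bulk RNA-seq study of heroin self-administration in wild-type male mice. They were chosen by their lower level in PFC after a heroin challenge, so their challenge values in PFC are a description with no test. The tests below concern other times, other regions, heroin history and the levels between regions.

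All 51 mice of the study took saline or heroin through an intravenous line for 15 d. After 24 h of withdrawal, with no challenge, 8 mice of the saline arm (group S24) and 11 of the heroin arm (group H24) were killed. A challenge injection and a drug-seeking test of 2 h followed 30 d of withdrawal in the remaining 32, in groups of 8 mice: SS (saline, saline challenge), SH (saline, heroin challenge), HS (heroin, saline challenge) and HH (heroin, heroin challenge). Libraries came from 6 regions labelled PFC, NAc, dStri, BLA, vHPC and VTA, which in this field stand for prefrontal cortex, nucleus accumbens, dorsal striatum, basolateral amygdala, ventral hippocampus and ventral tegmental area. The labels give no dose, no age and no account of whether meninges were removed, and all groups share the surgery and the self-administration sessions.

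Each region had 51 libraries, and BLA had 50, with 7 of S24. All were used but 1, VTA HH mouse 7 with 0.89 M counts, so VTA HH has 7 mice. Depth in the rest ran from 19.31 over 31.47 (the median) to 61.35 M counts. Another 6 libraries stood apart from their region by rank correlation: vHPC HH mouse 18, VTA S24 mouse 37, dStri HS mouse 11 and, in BLA, SS mouse 6 and H24 mice 42 and 39. Values without them are given beside the results they moved most. The mouse is the replicate, and values are CPM, the share of a library's total count per 1e+06 counts.

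Leptomeningeal fibroblasts cover the surface of the brain and line the larger vessels that enter it, and they lay down the collagen and proteoglycan matrix of the pia and arachnoid. They also carry transporters that move organic anions and amino acids between cerebrospinal fluid and blood, and they secrete growth factors and carriers of lipids. Several of these genes are not restricted to them: Apod and Ptgds are also made by oligodendrocytes, and Igf2 and Igfbp2 also by the epithelium of the choroid plexus, whose defining transcript is Ttr (transthyretin). In bulk tissue, fewer cells of a type and less RNA per cell cannot be told apart.

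Of the 10 genes, 7 have promoters in the RefSeq table used here (GRCm38.p6), and 4 have a single entry. For those 4 the 150 bases before the transcription start are printed, since the genes were chosen together by a lower level in PFC. Capitals mark matches, on either strand, to the TATA box letters TATAAA, the CCAAT box CCAAT, the GC box GGGCGG, the AP-1 site TGACTCA and the forkhead core TAAACA.
Ptgds, chr2:25469750-25469899, minus strand: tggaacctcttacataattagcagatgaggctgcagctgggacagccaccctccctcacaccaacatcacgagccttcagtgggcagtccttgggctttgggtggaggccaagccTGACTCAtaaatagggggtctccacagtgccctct
Apod, chr16:31314809-31314958, minus strand: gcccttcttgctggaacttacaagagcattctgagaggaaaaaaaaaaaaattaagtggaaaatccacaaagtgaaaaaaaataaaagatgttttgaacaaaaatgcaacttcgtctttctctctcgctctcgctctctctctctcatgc
Slc22a6, chr19:8617846-8617995, plus strand: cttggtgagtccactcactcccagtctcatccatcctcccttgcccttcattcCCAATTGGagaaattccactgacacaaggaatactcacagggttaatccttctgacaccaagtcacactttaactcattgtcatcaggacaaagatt
Col1a2, chr6:4505468-4505617, plus strand: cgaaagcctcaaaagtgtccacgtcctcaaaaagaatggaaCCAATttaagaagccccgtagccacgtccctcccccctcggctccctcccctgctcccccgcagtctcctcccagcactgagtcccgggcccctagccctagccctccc

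No motif of the 5 was found in all 4 windows. Ptgds held the AP-1 letters 35 to 29 bases before the start, and 2.84% of all 32851 promoter windows of that length held them. Col1a2 held 1 CCAAT box, and Slc22a6 held 2 that overlap on opposite strands; 24.5% of all windows held that motif. Apod held none of the 5. GGGCGG (28.6% of all windows), TATAAA (7.57%) and TAAACA (6.93%) were absent from these 4 windows. A match is a description of letters and not a bound site.

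In PFC, all 10 genes had a lower median in both heroin-challenged groups than in both saline-challenged groups. The heroin-challenge level was 0.537 to 0.575 of the saline-challenge level for Dcn, Slc22a6, Ptgds and Col1a1, and 0.970 of it for Igfbp2. Over the 32 libraries of the 30 d mice the log2 difference of heroin minus saline challenge (16 mice against 16) ran from -0.90 for Dcn to -0.04 for Igfbp2, with a median of -0.70. All 10 lay below 0, while the median over all 19976 genes fitted was -0.008 and 53.3% of them lay below 0. In this contrast 0.235% of all genes were called at an edgeR adjusted p under 0.05, and none of the 10 is given a p because this contrast chose them.

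**Figure D1:**
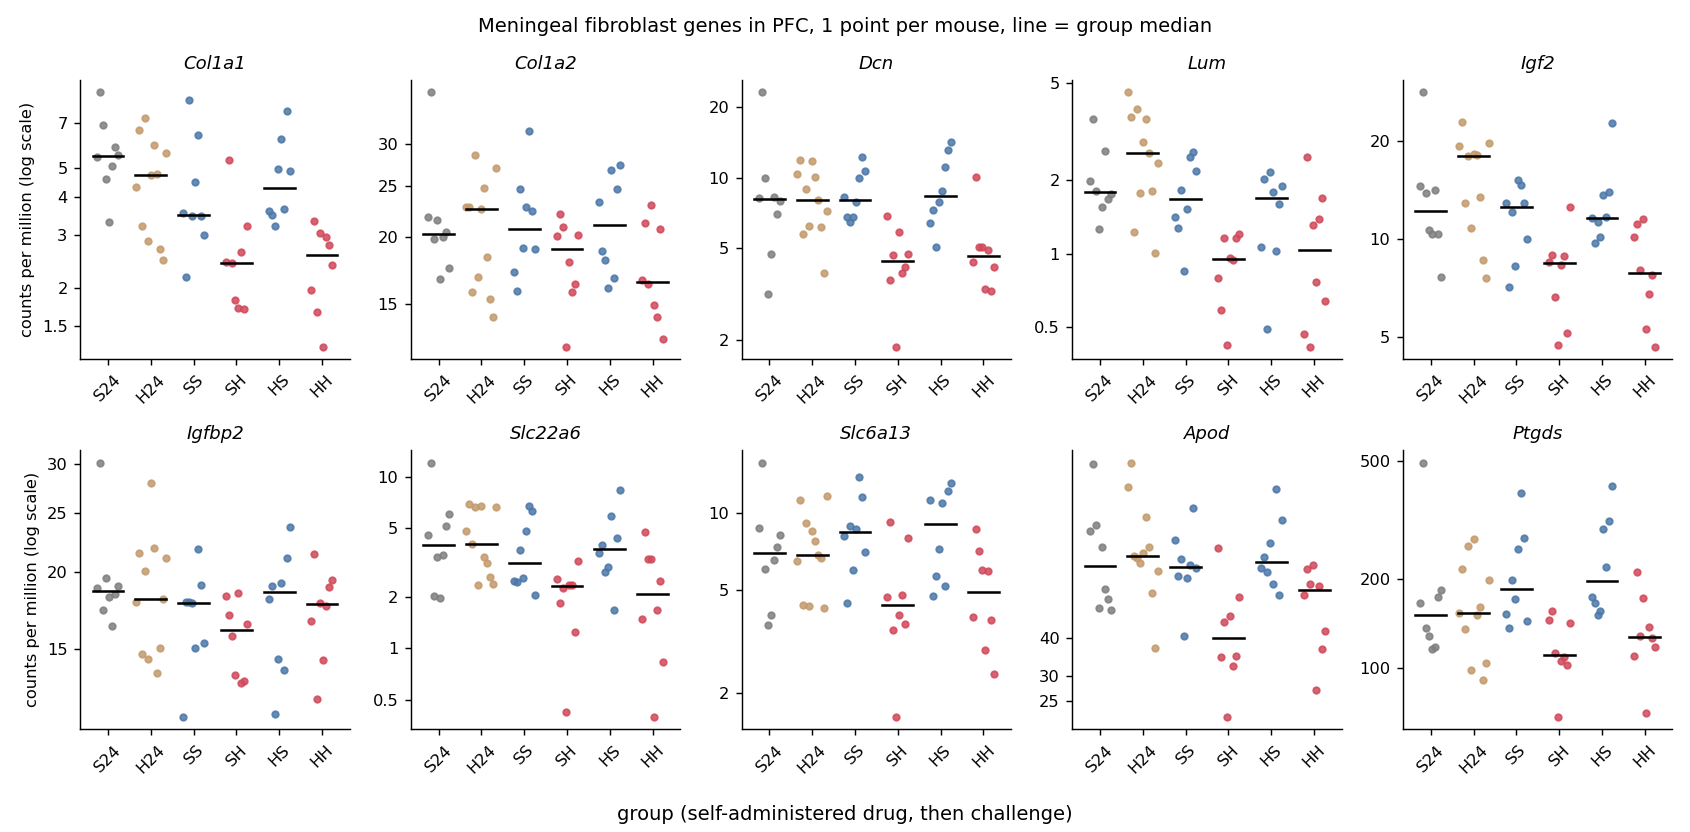
CPM (log axis) of the 10 genes in PFC, 1 point per mouse and a line at the median of each group. The SH and HH points (red) tend to lie lower than the SS and HS points (blue) for most genes but overlap them for every gene. For Igfbp2 they lie within the range of the blue points. S24 and H24 overlap throughout.

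Fibrillar collagen: Col1a1 (ENSMUSG00000001506, chromosome 11, 94936224 to 94953042) and Col1a2 (ENSMUSG00000029661, chromosome 6, 4504814 to 4541544) encode the chains that together make type I collagen. In SS, Col1a1 ran from 2.18 over a median of 3.49 to 8.39 CPM, and in HS from 3.20 over 4.26 to 7.70. In SH it ran from 1.71 over 2.42 to 5.29, and in HH from 1.28 over 2.58 to 3.33 CPM. HH overlapped HS only between the highest HH value and the lowest HS value, and SH overlapped SS. The log2 difference for Col1a1 was -0.80 ± 0.172 (SE), or 0.575 of the saline-challenge level. Col1a2 was steadier: its medians were 20.7 in SS, 21.1 in HS, 19.0 in SH and 16.4 CPM in HH, and its difference was -0.24 ± 0.0938. The SH and HH ranges of Col1a2 (12.4 to 22.2 and 12.9 to 23.0 CPM) overlapped those of SS and HS (15.9 to 31.7 and 16.0 to 27.4 CPM).

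Matrix proteoglycans: Dcn (decorin; ENSMUSG00000019929, chromosome 10, 97479609 to 97518143) and Lum (lumican; ENSMUSG00000036446, chromosome 10, 97565128 to 97572703) are neighbouring genes on the plus strand, and their small leucine-rich proteins bind collagen fibrils and set fibril spacing. Dcn had the largest difference of the 10 genes, -0.90 ± 0.148. It ran from 6.42 over 8.03 to 12.3 CPM in SS and from 5.05 over 8.32 to 14.2 in HS. In SH it ran from 1.88 over 4.39 to 6.85 and in HH from 3.25 over 4.63 to 10.1 CPM. Apart from HH mouse 5 at 10.1 CPM, only SH mouse 4, at 6.85, reached the lowest SS value. Lum was low in every group, with medians of 1.68 (SS), 1.69 (HS), 0.948 (SH) and 1.04 CPM (HH), that is 28 counts in the median heroin-challenged library against 42. Its difference was -0.65 ± 0.222, and it was -0.94 in the saline-history mice against -0.36 in the heroin-history mice, a gap whose interaction test is given below.

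Growth factor axis: Igf2 (ENSMUSG00000048583, chromosome 7, 142650766 to 142666816, minus strand) encodes insulin-like growth factor 2, a ligand of the IGF1 and insulin receptors. Its medians were 12.5 (SS), 11.6 (HS), 8.41 (SH) and 7.88 CPM (HH), and 15 of 16 heroin-challenged mice lay below the mean log2 CPM of the saline-challenged mice, with a difference of -0.59 ± 0.133. Igf2 shares its locus with the antisense gene Igf2os, whose highest library held 1.952 CPM. Igfbp2 (ENSMUSG00000039323, chromosome 1, 72824503 to 72852474) encodes a binding protein that holds insulin-like growth factors outside the cell. It did not share the pattern of the others: medians were 17.8 (SS), 18.5 (HS), 16.1 (SH) and 17.7 CPM (HH), 9 of 16 heroin-challenged mice lay above the saline-challenge mean of log2 CPM, and its difference of -0.04 ± 0.0852 turned to 0.01 without HS mouse 23.

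Transporters: Slc22a6 (ENSMUSG00000024650, chromosome 19, 8618039 to 8628299) encodes organic anion transporter 1, and Slc6a13 (ENSMUSG00000030108, chromosome 6, 121300227 to 121337733) encodes GAT2, a carrier of GABA and taurine. Slc22a6 medians were 3.15 (SS), 3.78 (HS), 2.30 (SH) and 2.07 CPM (HH). The lowest values, 0.422 in SH mouse 19 and 0.398 CPM in HH mouse 16, rest on 13 and 14 counts. Its difference was -0.89 ± 0.249. Slc6a13 medians were 8.40, 9.06, 4.37 and 4.94 CPM in the same order, with a difference of -0.76 ± 0.187. For both transporters 13 to 15 of 16 heroin-challenged mice lay below the saline-challenge mean of log2 CPM.

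Lipocalins: Ptgds (ENSMUSG00000015090, chromosome 2, 25466709 to 25470046, minus strand) encodes prostaglandin D2 synthase of the lipocalin type, and Apod (ENSMUSG00000022548, chromosome 16, 31296192 to 31314808, minus strand) encodes apolipoprotein D, a carrier of small lipids. These were the most abundant of the 10 genes, also per length, at a median of 102.6 (Ptgds) and 26.4 RPKM (Apod) in PFC of the saline mice S24 and SS, against 0.728 for Lum and 0.736 for Col1a1. Ptgds medians were 184.9 in SS, 197.3 in HS, 110.7 in SH and 127.4 CPM in HH, and all 16 heroin-challenged mice lay below the mean log2 CPM of the saline-challenged mice, with a difference of -0.82 ± 0.144. Apod medians were 68.1, 70.2, 40.0 and 56.97 CPM in the same order, with a difference of -0.61 ± 0.130.

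The genes were low in the same libraries. In 10 of the 16 heroin-challenged PFC libraries 8 or more of the 10 genes lay below their median over the 32 libraries, and in 2 of 16 at most 2 did; the median was 9 genes. None of the 16 saline-challenged libraries had 8 or more genes below, 9 had at most 2, and the median was 2. These counts too describe the libraries that chose the genes, and their split by challenge follows in part from that choice. SH mouse 19 and HH mouse 16 held the lowest Ptgds (68.7 and 70.6 CPM) and Apod (22.2 and 27.0 CPM) of their groups. HH mouse 5 stood at the other end, with Dcn at 10.1 and Ptgds at 210.6 CPM. With 1 library left out at a time, which is a description on the libraries that chose the genes, the median over the 10 genes ran from -0.79 without HH mouse 5 to -0.64 without SS mouse 31.

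**Figure D2:**
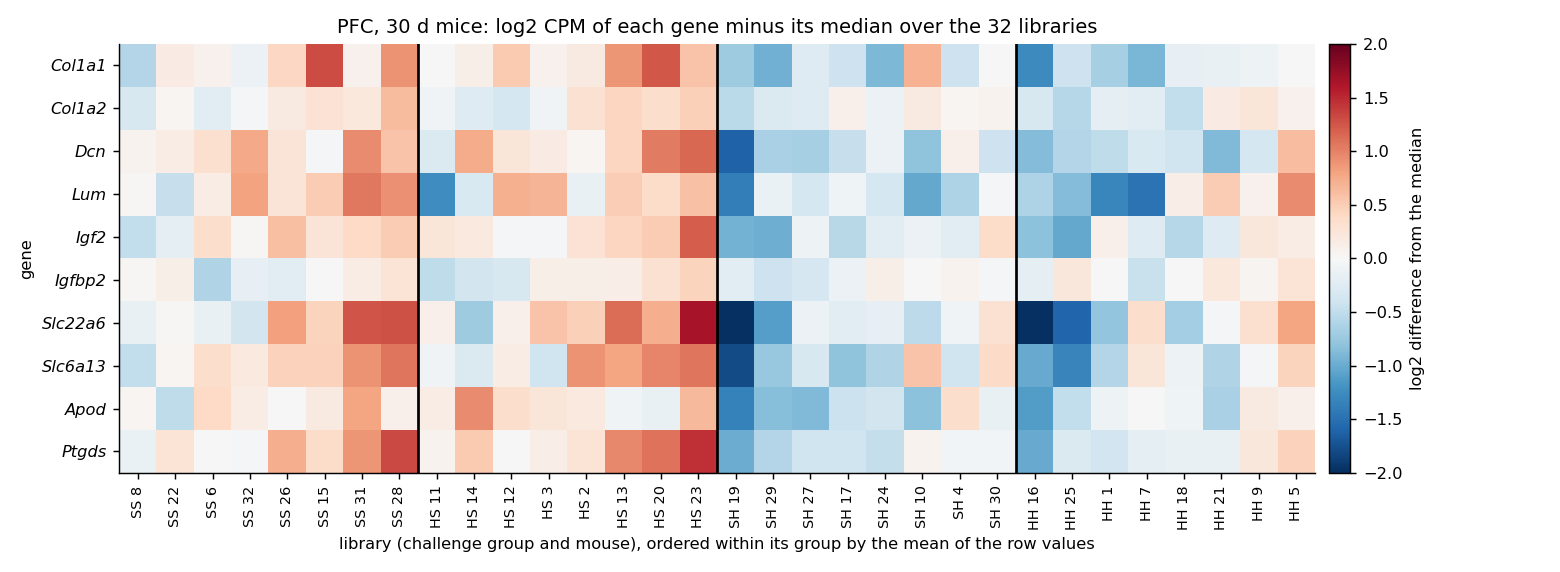
Log2 CPM of each gene (rows) minus its median over the 32 PFC libraries of the 30 d mice (columns, by group and mouse); red is above and blue below the median. Most SH and HH columns are blue through most rows, with SH mouse 19 and HH mouse 16 the darkest, while the Igfbp2 row stays pale in all 4 groups.

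The size of the PFC difference was alike in both histories: the median over the genes was -0.71 for SH minus SS and -0.71 for HH minus HS. The interaction, HH minus HS less SH minus SS, was tested. In PFC it was above 0 for 6 genes and below 0 for 4, from -0.25 (Col1a1) to 0.58 (Lum), with a median of 0.05, and by edgeR's quasi-likelihood test no gene was called (smallest adjusted p 1.0; 0 with an unadjusted p under 0.05, against 3.3% of all genes), as none of all genes was (0.0%).

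Marker genes of several cell types were lower in the same PFC libraries, while the other genes of the members' pathways were mixed. Of 27 further leptomeningeal fibroblast genes 24 had a lower mean after the heroin challenge, with a median of -0.42, and 2 were called lower by edgeR: Fbln1, a matrix glycoprotein (-0.35, adjusted p 0.02), and Slc6a20a, a proline transporter (-0.67, adjusted p 0.0232). The summed level of the list ran from 226.4 to 355.9 CPM in the heroin-challenged libraries (median 297.9) and from 297.1 to 428.3 in the saline-challenged ones (median 334.6), and none of its genes was at 0 throughout. Much of that sum came from Col6a1 (median 107.5 CPM after saline challenge), Igfbp6 (49.98), Cemip (36.16) and Col5a1 (30.42). These genes differed by only -0.05 to 0.04. All 12 oligodendrocyte markers were lower (median -0.46, 0 called, 12 with an unadjusted p under 0.05 against 8.94% of all genes), and their sum had a median of 1553 CPM (1176 to 3343) against 2460 (1189 to 3792). All 8 markers of border macrophages (median -0.42), all 10 endothelial markers (-0.13) and all 9 measured mural markers (-0.15) were lower as well, of which 1 was called, the mural gene Vtn (-0.25, adjusted p 0.0135). The measured blood genes ran from -0.31 (Hbb-bs) to -0.06 (Bpgm), and ependyma markers from -0.36 (Dynlrb2) to -0.23 (Foxj1). Microglia markers ran from -0.20 (Gpr34) to -0.0 (Tmem119), and no gene of these lists was called. The part of any of these cell types in the result was not tested. Astrocyte markers were near level (median -0.04, 6 of 8 lower). Of the choroid plexus markers Ttr was near its floor in PFC, with medians of 0.165 to 0.674 CPM in the 4 groups. Kl went from a median of 4.05 CPM after saline to 2.80 after heroin challenge (-0.46, not called). Enpp2 went from 168.6 to 154.7 CPM (-0.07), and Sostdc1, at low counts, was higher (0.35).

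Among the other genes of the members' pathways, 8 of 10 measured small leucine-rich proteoglycan genes were lower (median -0.32, 0 called). The smallest adjusted p-values belonged to Ogn, osteoglycin, at -1.25 ± 0.296 (edgeR adjusted p 0.0576), and Fmod, fibromodulin, with a median of 2.06 CPM against 3.84 (adjusted p 0.146). Of 24 genes for collagen chains, folding and cross-linking 18 were lower, with a median of only -0.08 and 0 called. Of 16 insulin-like growth factor genes 9 were lower and 7 higher (median -0.04), and the 1 called was higher: Irs2, an adaptor of the insulin receptors (0.24, adjusted p 0.02). Of 11 prostaglandin genes 6 were lower and 5 higher, and Ptgs2, the inducible cyclooxygenase, was called higher (0.28, adjusted p 0.0235). The other GABA and taurine carriers (median 0.02, 4 of 5 higher), organic anion carriers (-0.07, 6 of 8 lower) and lipocalins (0.07, 1 of 3 lower) held no called gene. None of these lists is independent of the choice of the 10 genes, since the same libraries and contrast served both.

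At 24 h of withdrawal, with no challenge, the 10 genes did not show this pattern in PFC. H24 minus S24 was above 0 for 3 genes and below 0 for 7, from -0.31 (Col1a1) to 0.39 (Lum), with a median of -0.07. Dcn medians were 8.07 CPM in S24 and 7.99 in H24, Ptgds 151.8 and 154.2, Apod 68.2 and 73.5, Slc22a6 4.01 and 4.04. S24 mouse 35 was the highest S24 library for all 10 genes, with Dcn at 23.2 and Ptgds at 494 CPM, and without it 9 of 10 genes were higher in H24 (median 0.21). Over all 6 regions 0 of 60 comparisons of a gene between H24 and S24 were called by edgeR (smallest adjusted p 0.57, for Apod in dStri at 0.31 ± 0.0728), and 0.0% of all genes were called in each region. In PFC none of the 10 had an unadjusted p under 0.05, against 2.48% of all genes. Without S24 mouse 35, 2 had one, against 2.39% of all genes.

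Unadjusted p-values under 0.05 fell to 20 of the 60, most of them in BLA, vHPC and VTA, and in opposite directions; in NAc 3 genes had one against 7.63% of all genes, and in dStri 2 against 4.85%. In BLA, 4 genes were concerned, all higher in H24, against 6.49% of all genes. Igf2 went from a median of 10.1 CPM in S24 (9.06 to 47.0) to 21.8 in H24 (8.38 to 219.3), a log2 difference of 2.09 with an edgeR adjusted p of 0.641. Igfbp2 went from 12.6 (10.3 to 48.2) to 28.5 CPM (8.90 to 240.7), a log2 difference of 2.14 with the same adjusted p. Without H24 mice 39 and 42, which stood apart, these differences were 1.28 and 1.38. An unadjusted p under 0.05 was then found for 3 genes, against 3.17% of all genes. Without S24 mouse 46 all 10 genes were higher in H24, 7 of them with an unadjusted p under 0.05 (7.82% of all genes).

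In vHPC 9 of 10 genes were higher in H24 (median 0.62), 5 of them with an unadjusted p under 0.05 against 3.92% of all genes. There Igf2 differed by 1.23 and Igfbp2 by 1.19 on the log2 scale (edgeR adjusted p 1.0 for both). Both differences rested on H24 mouse 40, which held 248.8 CPM of Igf2 and 358.8 of Igfbp2. Without it, a choice made after seeing the data, 9 of 10 genes were still higher in H24, with a median of 0.26. An unadjusted p under 0.05 was left for 2 genes, against 2.74% of all genes. Igf2 and Igfbp2 were then at 0.24 and 0.01. The choroid plexus list moved with both genes: its median log2 difference was 3.25 in BLA (12 of 12 higher; 2.29 without mice 39 and 42) and 3.99 in vHPC (11 of 11 measured; 0.12 without mouse 40). Ttr reached 9493 CPM in BLA H24 and 14165 CPM in vHPC H24, against at most 1713 and 111.8 CPM in S24. The 5 libraries with the most Igf2 in BLA held 4355 to 9493 CPM of Ttr, and those in vHPC 7311 to 14190 CPM. In the vHPC library of H24 mouse 40 Dcn was at 58.4 CPM, beside a group median of 58.8, while Col1a1 was at 17.1 CPM, the highest of its group, whose median was 5.68. The 5 BLA libraries with the most Igf2 held 17.6 to 34.2 CPM of Dcn and 6.46 to 12.8 of Col1a1, above the saline medians of 13.0 and 3.31. The part of choroid plexus RNA in the difference was not tested.

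**Figure D3:**
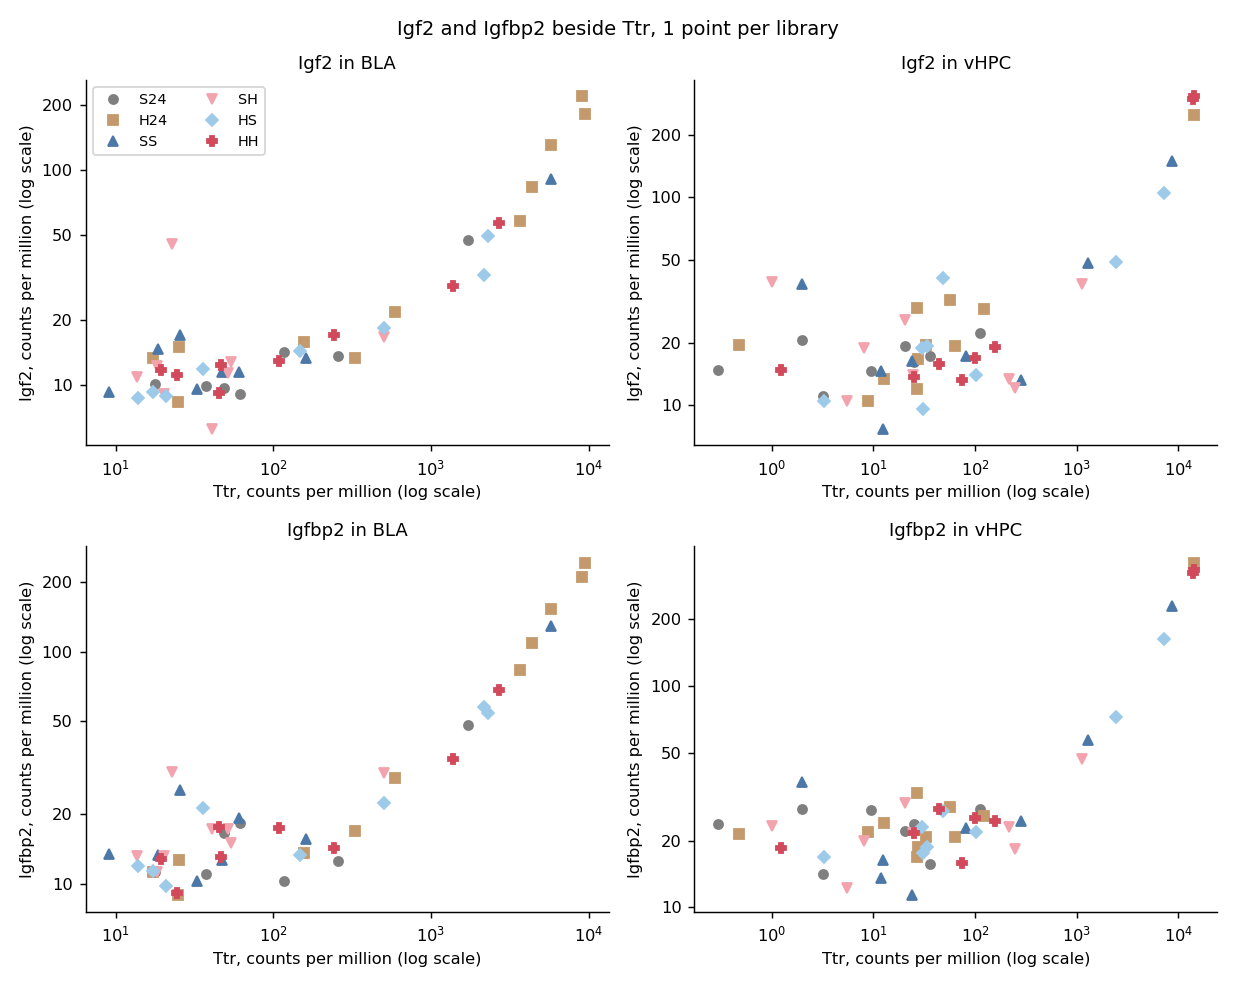
Igf2 (top) and Igfbp2 (bottom) against Ttr, both in CPM on log axes, in the 50 BLA (left) and 51 vHPC (right) libraries, with a marker for each group. Both genes are highest in the libraries with the most Ttr, up to 219.3 and 240.7 CPM in BLA and 307.0 and 358.8 CPM in vHPC.

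In VTA all 10 genes were lower in H24, with a median of -0.51, and 6 had an unadjusted p under 0.05 against 4.12% of all genes. Slc22a6 went from a median of 2.54 CPM (0.897 to 20.9) in S24 to 1.15 (0.704 to 1.98) in H24, a log2 difference of -1.91 ± 0.429, and Slc6a13 from 2.98 (1.88 to 29.7) to 2.22 CPM (1.22 to 4.24), -1.42 ± 0.425; both had an edgeR adjusted p of 0.975. The highest value of each came from S24 mouse 37, one of the libraries that stood apart. Without that library these differences were -0.90 and -0.36, and the median over the 10 genes was -0.15 with 9 of 10 lower. An unadjusted p under 0.05 was then found for 2 genes, against 3.07% of all genes.

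The challenge in the other 5 regions gave 0 called genes of 50 by edgeR (smallest adjusted p 0.6), beside 0.00506% of all genes in NAc, 0.00513% in dStri and 0.0% in BLA, vHPC and VTA. At an unadjusted p under 0.05 there were 9 of 50, namely 2 in NAc (4.64% of all genes), 1 in dStri (7.78%), 6 in VTA (3.31%) and 0 in BLA (2.79%) and vHPC (2.4%). In NAc 8 of 10 genes were lower (median -0.15). Dcn differed by -0.38 ± 0.142 there (adjusted p 0.992) and Apod by -0.23 ± 0.0707 (adjusted p 0.845). In dStri 9 of 10 were lower but by less (median -0.12), with Dcn at -0.26 ± 0.116 (adjusted p 0.6); without HS mouse 11 the median was -0.07. Dcn was thus below 0 in PFC, NAc, dStri and BLA (-0.47) and above 0 in vHPC (0.28) and VTA (0.24).

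In VTA the direction was the other way for 9 of 10 genes, with a median of 0.54. Col1a1 ran from 2.63 over 3.70 to 7.95 CPM in SS and from 5.21 over 6.84 to 8.88 in SH, and from 2.83 over 3.50 to 4.16 in HS and 3.21 over 3.59 to 15.2 in HH. Its log2 difference over both histories was 0.62 ± 0.185, with an edgeR adjusted p of 1.0. Without HH mouse 16 the median over the 10 genes was 0.19, still with 9 of 10 higher, and Col1a1 was at 0.37. An unadjusted p under 0.05 then fell to 3 genes, against 3.75% of all genes. Without that mouse HH minus HS had a median of -0.08, with 4 genes higher and 6 lower. SH minus SS stood at 0.53, with 9 higher and 1 lower. In vHPC all 10 genes were higher (0.01 to 0.64, median 0.27), but without HH mouse 18, whose Ptgds was 2089 CPM beside a group median of 237.6, 6 of 10 were lower (median -0.06). In BLA 8 of 10 were lower (median -0.09), and without SS mouse 6, 8 of 10 were higher (0.05). Without SH mouse 19 all 10 were lower (-0.43), 2 of them with an unadjusted p under 0.05 (2.94% of all genes). Whether the PFC difference itself differs from that of another region was not tested.

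**Figure D4:**
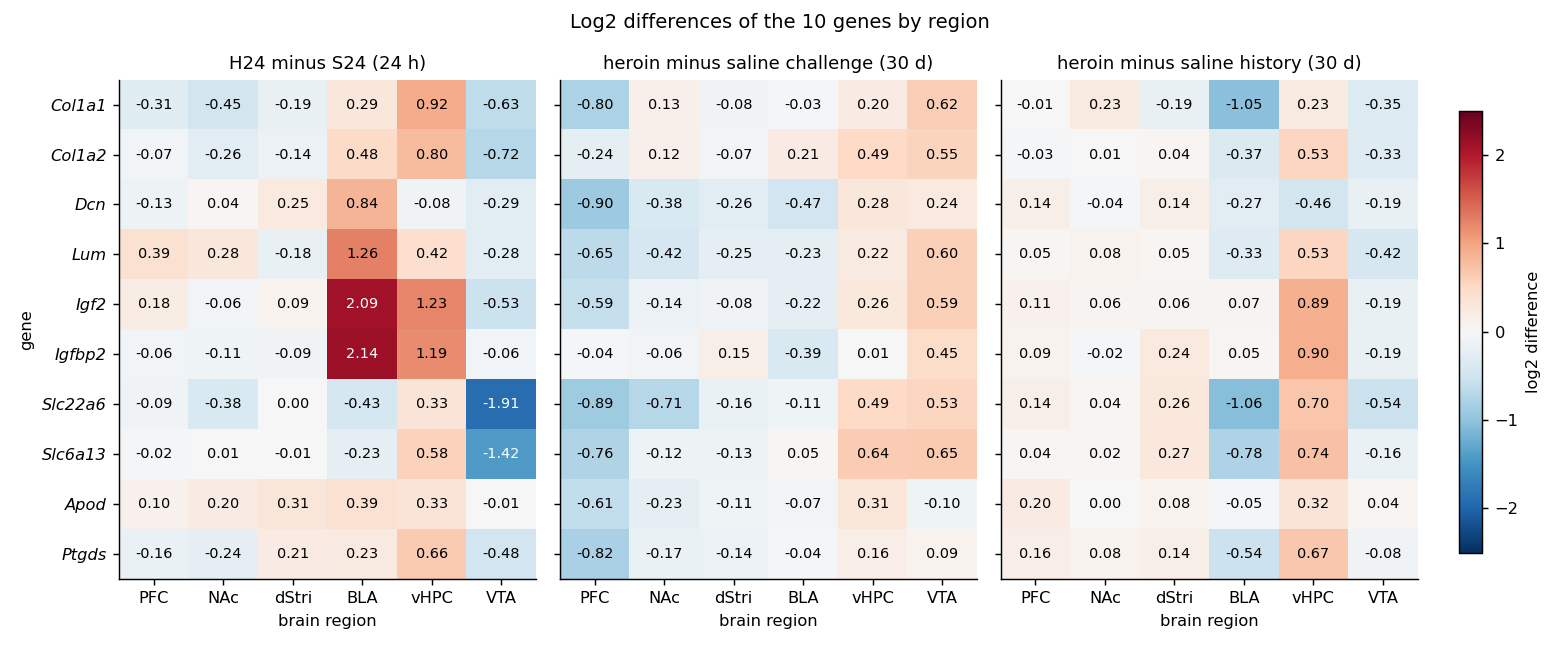
Log2 differences of the 10 genes (rows) in the 6 regions (columns) for H24 minus S24, heroin minus saline challenge and heroin minus saline history. The PFC column of the challenge panel was used to choose the genes; it is blue in all rows but Igfbp2 (-0.04), the VTA column of that panel is red in 9 rows, and none of the cells outside PFC was called.

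Heroin history, the mice HS and HH against SS and SH, gave 0 called genes of 60 by edgeR (smallest adjusted p 0.619), beside 0.0% of all genes in each region. An unadjusted p under 0.05 fell to 5 of the 60: 3 in BLA (5.47% of all genes), 1 in dStri (6.31%), 1 in vHPC (7.83%) and 0 in PFC (3.88%), NAc (2.5%) and VTA (3.05%). In vHPC the median over the 10 genes was 0.60. Without HH mouse 18 it was 0.17, and no gene had an unadjusted p under 0.05 (6.71% of all genes). In VTA 7 genes had one without HH mouse 16 (3.42% of all genes), with a median of -0.57. In BLA the median was -0.35. Without SH mouse 19 it was -0.12, and 1 gene had an unadjusted p under 0.05 (4.69% of all genes). Without SS mouse 6 it was -0.25, and 3 genes had one (8.32%). SH mouse 19 held 16.2 CPM of Col1a1 in BLA, beside 2.10 to 4.81 in the rest of its group. In PFC the genes lay between -0.03 (Col1a2) and 0.20 (Apod), with a median of 0.10. The lowest p was that of Col1a1 in BLA: medians of 4.42 CPM in SS and 3.36 in SH against 2.47 in HS and 2.27 in HH, a log2 difference of -1.05 ± 0.226 with an edgeR adjusted p of 0.837, which DESeq2 called at an adjusted p of 0.019, the 1 gene of all 19542 that it called there. The code set of a mouse is the first number of its BLA library code, carried over here to its other regions. The labels do not say what it stands for. History was partly bound up with it: sets 1 and 2 held 3 and 5 SS, 4 and 4 SH, 6 and 2 HS and 6 and 2 HH mice. Set 3 held only mice of the 24 h groups. The interaction gave 0 called of 60 by edgeR (smallest adjusted p 0.904), beside 0.0% of all genes in each region. Only Igf2 and Igfbp2 in vHPC, at 2.20 each on the log2 scale, had an unadjusted p under 0.05, where 3.67% of all genes did. Without HH mouse 18, which held 307.0 and 332.1 CPM of them, they were at 1.58 and 1.63. HH mouse 21, with 297.7 and 322.8 CPM of them and 14069 CPM of Ttr, stayed in that fit. The median over the 10 genes then went from 1.15 to 0.19, and no gene had an unadjusted p under 0.05 (3.08% of all genes). In VTA 3 genes had one without HH mouse 16 (4.94% of all genes), and in BLA 2 without SH mouse 19 (2.88%). With all libraries the share of all genes was 1.89% in NAc, 2.73% in dStri, 2.29% in BLA and 5.61% in VTA.

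Levels between regions were compared in the saline mice of S24 and SS (16 a region, 15 in BLA). By edgeR's test, 91 of 150 comparisons of a gene between 2 regions were called, against 53.3% of such comparisons over all 21318 genes. The 10 genes did not share a regional order. Col1a2, Slc22a6 and Slc6a13 were highest in PFC, Apod, Ptgds and Igfbp2 in VTA, and Col1a1, Dcn, Lum and Igf2 in vHPC, while dStri was the lowest region for 5 of them.

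Dcn had the widest range, from a median of 5.58 CPM in dStri to 97.1 in vHPC, 17.4-fold, and single vHPC libraries ran from 9.68 to 322 CPM. Its order was vHPC, VTA (23.9), BLA (13.0), PFC (8.07), NAc (6.59) and dStri; PFC and NAc, and NAc and dStri, were not called different. Lum, its chromosomal neighbour, was also highest in vHPC, at 5.73 against 1.78 CPM in PFC. Col1a2 was highest in PFC, at 20.3 CPM against 12.0 in VTA (log2 difference 0.57, adjusted p 0.00318), and lowest in BLA at 7.19. Col1a1 varied only 2.3-fold, from 2.11 in dStri to 4.85 in vHPC, and no neighbours in its order differed. Igf2 varied least, 1.54-fold, between 10.9 CPM in dStri and 16.8 in vHPC.

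Slc22a6 stood at 3.62 CPM in PFC and at 0.741 to 1.87 elsewhere. The gap between PFC and VTA had an edgeR adjusted p of 0.105, and 0.0143 with the mouse as a block; between PFC and vHPC these were 0.0997 and 0.0358. Slc6a13 was at 7.76 CPM in PFC and at 2.18 to 3.10 elsewhere. Apod reached 510 CPM in VTA against 68.1 in PFC and 157 in dStri, and Ptgds 535.1 in VTA against 106.8 to 169.1 elsewhere. Igfbp2 ran from 4.60 in dStri to 44.95 CPM in VTA, 9.77-fold, and VTA and vHPC (23.78) were not called different.

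**Figure D5:**
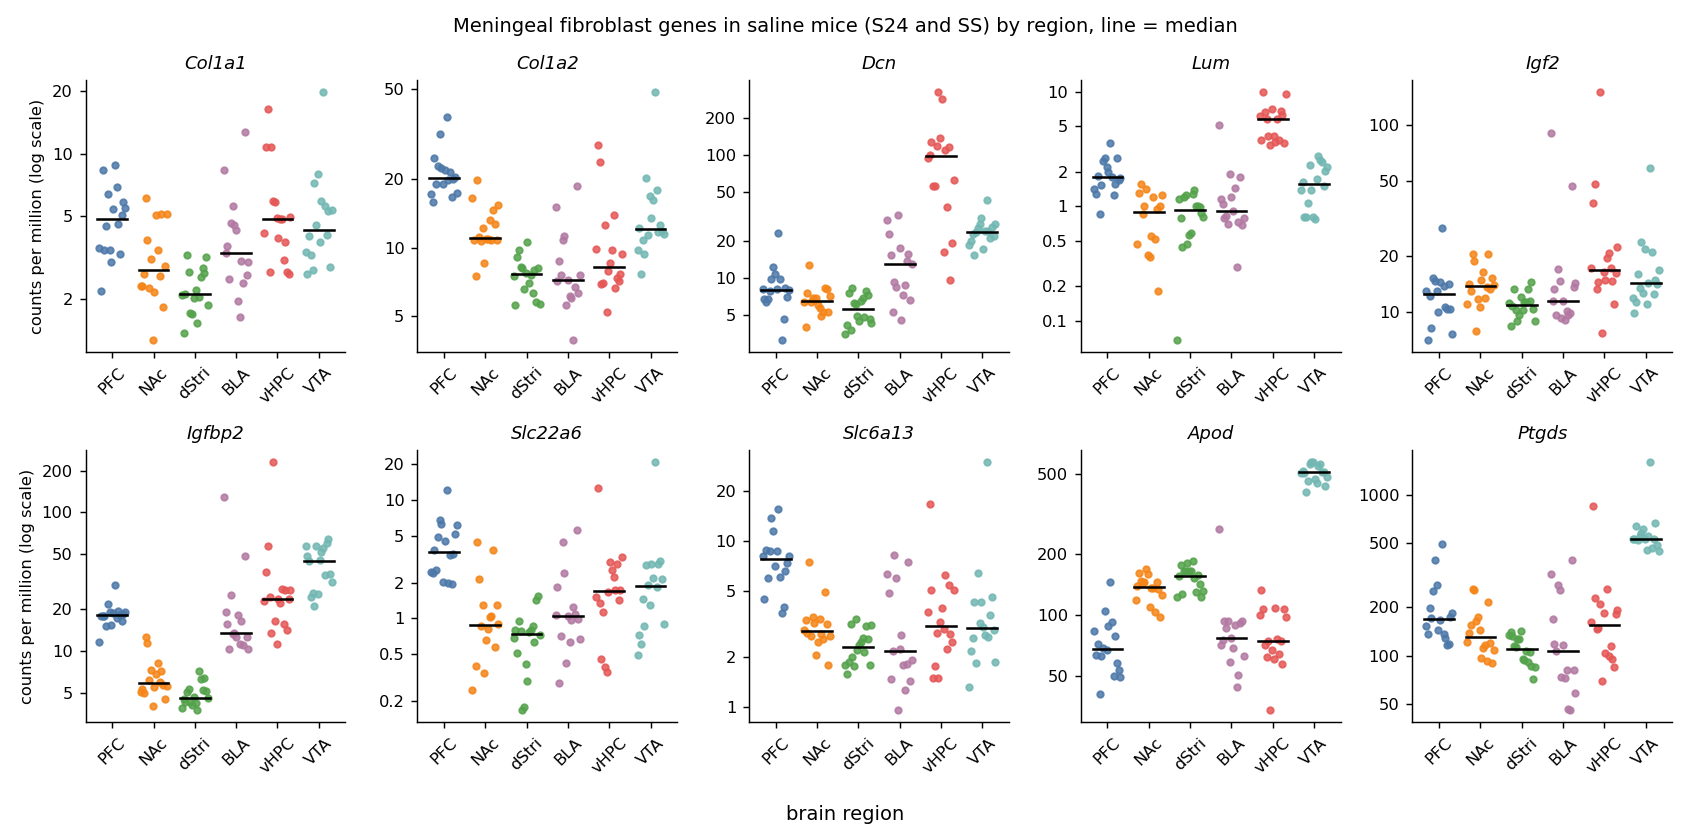
CPM (log axis) of the 10 genes in the saline mice (S24 and SS) of each region, 1 point per library and a line at the median. Dcn and Lum stand highest in vHPC, Apod and Ptgds in VTA, and Slc22a6, Slc6a13 and Col1a2 in PFC; single libraries of BLA, vHPC and VTA lie far above the rest.

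Over all libraries used, the genes whose log2 CPM most resembled that of the 10, among 12489 with a mean of at least 1 CPM, were Fmod (mean correlation within regions 0.725), Serping1 (0.718), Ogn (0.704), Slc13a4 (0.697) and Mgp (0.694), followed by Colec12, Gjb2, Pcolce, Slc6a20a and Bgn (0.676 to 0.662). Of these 10 genes, 7 are on the list of leptomeningeal fibroblast genes, and Slc13a4, Colec12 and Gjb2 are on none of the lists. The likeness was closer in some regions: Fmod correlated at 0.863 in PFC and 0.882 in vHPC and at 0.370 in dStri. Values were first centred on the mean of each group within a region, so differences between groups do not enter these correlations. They describe libraries that share depth and tissue composition, and they carry no test. Between regions of the same mouse the mean level of the 10 genes, centred in the same way, was not shared. Over 15 pairs of regions the correlation ran from -0.349 to 0.156 with a median of 0.004. Single members differed. By CPM without centring, the 10 PFC libraries highest in Apod shared 8 with the 10 highest oligodendrocyte sums and 4 with the leptomeningeal ones. These numbers were 4 and 0 in NAc, 6 and 0 in dStri, 7 and 5 in BLA, 5 and 4 in vHPC and 4 and 4 in VTA. They were 3 and 5 for Ptgds in PFC, and 0 and 3 for Dcn in vHPC.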

How the data were processed

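Per the labels, total RNA of 6 brain regions of 51 mice was isolated (RNEasy Micro, Qiagen), depleted of ribosomal RNA and sequenced from both ends as libraries that keep strand. The submitters' processing notes name build mm10 and HTSeq, SAMtools, HISAT2 and FastQC; versions, settings and the annotation release are not given in the sources used here. The values used are raw read counts per gene and library, which the authors deposited in 1 table; the other 7 files were not used, and 0 value columns lacked a sample. Names and coordinates come from GENCODE M21 (GRCm38), and promoters from RefSeq.

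The members, gene lists and comparisons were chosen with earlier results of these data known. A member was named by its symbol, and the lists' members by a call or as the smallest adjusted p of their list; the 10 genes most like the members were named by mean correlation. All 10 members passed the low-count filter in every fit. Counts were fitted within each region, separately for 24 h and 30 d mice, with edgeR 4.0.16 in R 4.3.3 (filter at a minimum count of 10, TMM factors, quasi-likelihood test, a coefficient per group); regions were compared in 1 fit of saline mice. P-values were adjusted by Benjamini and Hochberg over all genes of a region and contrast, and called under 0.05. Log2 values carry a prior count of 1; ± gives the SE. A library stood apart at over 4 scaled median absolute deviations below its region's median rank correlation. Alternatives were DESeq2 1.42.0, RLE factors, no filter, the code set as covariate, the mouse as a block and leaving out libraries. Libraries of 1 group differed by more than sampling noise in all 1156 pairs (lowest chi-square per degree of freedom 7.072). The same mouse gave all its regions, so the mouse number pairs libraries between regions. The correlation between regions of its member levels, centred on the group mean, was 0.004 at the median (-0.349 to 0.156). On simulated counts with the PFC challenge design (19976 genes) 67.7% of genes changed by 0.5 on the log2 scale and 77.3% of those changed by 1 were called. With the VTA H24 and S24 design (18370 genes) these were 40.6% and 76.5%. Unchanged genes called were 11 and 8. Each gene was drawn on its own, without libraries in which many genes stand high together, and the rates are averages over genes of all levels.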

Additional observations from a re-analysis of the deposited data

Results flagged for a closer look

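In 41 of 300 sets of 1 gene in 1 group of 7 to 8 libraries, the highest or the lowest log2 CPM lay far from the nearest other by Dixon's ratio, where chance gives about 1 in 20; 38 of the 41 were high. A few libraries held most of them, 29 in 7 libraries with 3 or more members each. In VTA S24 mouse 37 these were Col1a1 (19.8 CPM), Col1a2 (48.3), Dcn (43.3), Igf2 (58.7), Slc22a6 (20.9), Slc6a13 (29.7) and Ptgds (1602). In BLA S24 mouse 46 they were Col1a1 (12.7), Igf2 (47.0), Igfbp2 (48.2), Slc22a6 (5.62) and Ptgds (395). BLA SH mouse 19 held Col1a1 at 16.2, Col1a2 at 36.4, Slc6a13 at 19.2 and Ptgds at 865 CPM, and VTA HH mouse 16 held Col1a1 at 15.2, Col1a2 at 39.8, Igf2 at 74.7 and Slc6a13 at 16.7. BLA SS mouse 6 held Igf2 at 90.6, Igfbp2 at 129.1 and Apod at 266.7 CPM, PFC S24 mouse 35 Col1a2 at 37.5, Igfbp2 at 30.2 and Ptgds at 494, and vHPC HH mouse 18 Slc22a6 at 37.1, Slc6a13 at 63.4 and Ptgds at 2089.

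Single genes or pairs stood out in vHPC SS mouse 8 (Slc22a6 12.7 and Ptgds 855 CPM), NAc S24 mouse 44 (Slc22a6 3.81 and Ptgds 214.9), BLA HS mouse 14 (Dcn 47.2), NAc HH mouse 18 (Col1a1 7.85), NAc SS mouse 22 (Slc6a13 7.47), PFC HH mouse 5 (Dcn 10.1) and PFC HS mouse 23 (Igf2 22.8). The low ones were Slc22a6 in NAc HS mouse 14 (0.0699 CPM) and Lum in SS mouse 6, at 0.0679 CPM in dStri and 0.0 in NAc. The SH minus SS differences of Lum and Slc22a6 had opposite signs in VTA and PFC for every SH mouse, and lay 1.80 and 1.63 apart on the log2 scale; this difference was not tested, and the PFC values chose the genes.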

How the results depend on the processing

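The PFC challenge is left aside here, since no test of the members is given for it. In the other contrasts of treatments no member was called under edgeR with RLE factors, no filter, the code set as covariate or left-out libraries. DESeq2 called 1 of the 56 members it gave an adjusted p for history, Col1a1 in BLA, which was also the 1 gene of all 19542 it called there. Of the 150 comparisons between regions 91 were called, and 90 to 93 under the alternatives, 93 of them with the mouse as a replicate block, the paired fit. In PFC the median over the members ran from -0.79 to -0.64 on the log2 scale over 32 fits without 1 library each, and Igfbp2 turned to 0.01 without HS mouse 23. The directions that turned elsewhere belong to uncalled log2 differences. H24 minus S24 turned in PFC without S24 mouse 35 for Col1a2 (0.08), Dcn (0.22), Igfbp2 (0.04), Slc22a6 (0.24), Slc6a13 (0.21) and Ptgds (0.20), in BLA without S24 mouse 46 for Slc22a6 (0.30) and Slc6a13 (0.26), and in VTA without S24 mouse 37 for Apod (0.005). The challenge turned in BLA without SS mouse 6 for Col1a1 (0.05), Lum (0.03), Igf2 (0.18), Igfbp2 (0.05), Apod (0.10) and Ptgds (0.04), and without SH mouse 19 for Col1a2 (-0.04) and Slc6a13 (-0.43). It turned in vHPC without HH mouse 18 for Col1a1 (-0.27), Col1a2 (-0.07), Igf2 (-0.04), Igfbp2 (-0.27), Slc22a6 (-0.49) and Ptgds (-0.31). History turned with the code set as covariate for Col1a2 in PFC (0.01), Igfbp2 (0.10) and Slc6a13 (-0.02) in NAc and Igf2 (-0.08) and Igfbp2 (-0.03) in BLA, for Apod in BLA without SS mouse 6 (0.12) or SH mouse 19 (0.005), and in vHPC without HH mouse 18 for Col1a1 (-0.24), Col1a2 (-0.04) and Slc22a6 (-0.29). The interaction turned in BLA without SH mouse 19 for Col1a1 (0.33), Col1a2 (0.21), Slc22a6 (0.80), Slc6a13 (0.90) and Ptgds (0.69), and without SS mouse 6 for Lum (-0.16), Igf2 (-0.25) and Igfbp2 (-0.33). In vHPC it turned without HH mouse 18 for Col1a2 (-0.21), Slc22a6 (-0.78) and Slc6a13 (-0.06), and in VTA without HH mouse 16 for Col1a1 (-0.45), Col1a2 (-0.49), Dcn (-0.26), Igf2 (-0.73) and Slc6a13 (-0.78), and with the code set for Col1a2 (-0.001). Leaving out these single libraries was chosen after seeing the data, except for those that stood apart. Depth limits Lum, with a median of 21 to 46 counts per library outside vHPC, and Slc22a6, with 20 to 95 over all regions.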

Other observations

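High and low levels of the members, relative to their group, did not go together between the regions of a mouse (median correlation 0.004). The 2 mice below, chosen after their values were seen, lay at opposite ends in different regions. SH mouse 19 had the lowest Ptgds of its group in PFC, at 68.7 CPM, and the highest in BLA, at 865 CPM. HH mouse 16 had the lowest Col1a1 of its group in PFC, at 1.28 CPM, and the highest in VTA, at 15.2 CPM.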
